A study of Mus musculus with 8 samples.

Results

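Troponins and tropomyosins are the proteins that switch the thin filament of muscle on and off with calcium. Here 10 of their genes were followed in a fast hindlimb muscle of mice with an inducible p300 and CBP knockout in skeletal muscle. Both proteins are acetyltransferases. The genes were taken by name: the troponin T genes Tnnt1, Tnnt2 and Tnnt3, the troponin I genes Tnni1 and Tnni2, the troponin C genes Tnnc1 and Tnnc2, and the tropomyosin genes Tpm1, Tpm2 and Tpm3. Probe accessions tied 17 array probes to these 10 genes, out of 55681 non-control probes and 20145 genes with a named probe. All 17 probes passed the filter on dim probes, which kept a probe if 4 or more of the 8 arrays read it well above background, but 1 of the Tpm1 probes passed through the wildtype arrays alone.

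RNA came from the extensor digitorum longus (EDL) muscle of 8 male C57BL/6 mice, 4 per group, and each mouse was hybridised to its own single-colour Agilent array. Mice labelled PCKO carry an inducible knockout of p300 and CBP that is specific to skeletal muscle, were given tamoxifen by gavage for 5 days from 13 to 15 weeks of age, and were killed, fasted for 4 h, on the day after dosing ended. The other group is labelled wildtype (WT). The same protocol text stands with all 8 samples and describes only PCKO mice, so the sources used here give neither whether WT mice also received tamoxifen nor which promoter drives the recombinase. The genotype label names CBP with PCKO, while the protocol names both proteins.

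In a striated muscle fibre, tropomyosin lies along actin and blocks the sites that myosin binds. Troponin C binds calcium, troponin I holds the filament in its inhibited state, and troponin T ties the complex to tropomyosin. Slow fibres use Tnnt1, Tnni1, Tnnc1 and the slow product of Tpm3, fast fibres use Tnnt3, Tnni2, Tnnc2 and the striated product of Tpm1, Tpm2 encodes the beta chain, and Tnnt2 is the heart form, also made in developing and regenerating muscle. The mouse EDL is mostly fast fibres.

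Each level below is log2 of the processed spot intensity minus the 75th percentile of that array, so 0 is the array's own 75th percentile. A difference is PCKO minus WT on this log2 scale, with its standard error from limma and a p-value adjusted over all 24872 probes tested. All 10 genes, each read by its brightest probe, were lower in PCKO muscle (limma, adjusted p at most 0.0049), and so were all 17 probes. For the Tpm1 probe admitted through WT arrays alone, the filter itself favours a lower call and groups that do not overlap. With well above background required on all 8 arrays, 9 member genes and 15 member probes were tested. All of these were lower, against 32% of 21138 probes. The background was high: 65.1% of all tested probes were called, 31.3% of all being lower and 33.8% higher, and of 12739 named genes 69.4% were called, 31.9% of all being lower and 37.5% higher. No member probe had overlapping groups, and of all tested probes 59.9% had none, 28.6% being lower. The median difference over the 10 genes was -1.46, a 2.74-fold reduction, while the median over all named genes was 0.06. Tnni1, Tnnc1, Tnnt1 and Tpm2, 4 of the 10 genes, were lower by at least 3 log2 units, which is 8-fold, as were 2.27% of all named genes.

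These directions depend on how arrays are set level with each other. The 75th percentile stood 0.68 log2 units higher against 7 spike-in probes on PCKO arrays than on WT arrays (exact two-sided permutation test, p = 0.029, the smallest 4 against 4 mice can give). With the spike-in probes as the zero, the median of all tested probes moved to 0.70. Then 6 of the 10 genes and 10 of the 17 probes were still called lower and none higher. Of all tested probes, 2393 (9.6%) were then lower and 12969 higher. The 6 genes were Tnnt1, Tnnt2, Tnni1, Tnnc1, Tpm1 and Tpm2. With quantile normalization 7 genes were lower and Tnnc2 was called higher, while 6975 of all tested probes (28%) were lower and 9471 higher. The large differences of the slow troponins and Tpm2 held their direction and call under every scaling tried, whereas those of Tnni2 and Tnnc2 did not.

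**Figure D1:**
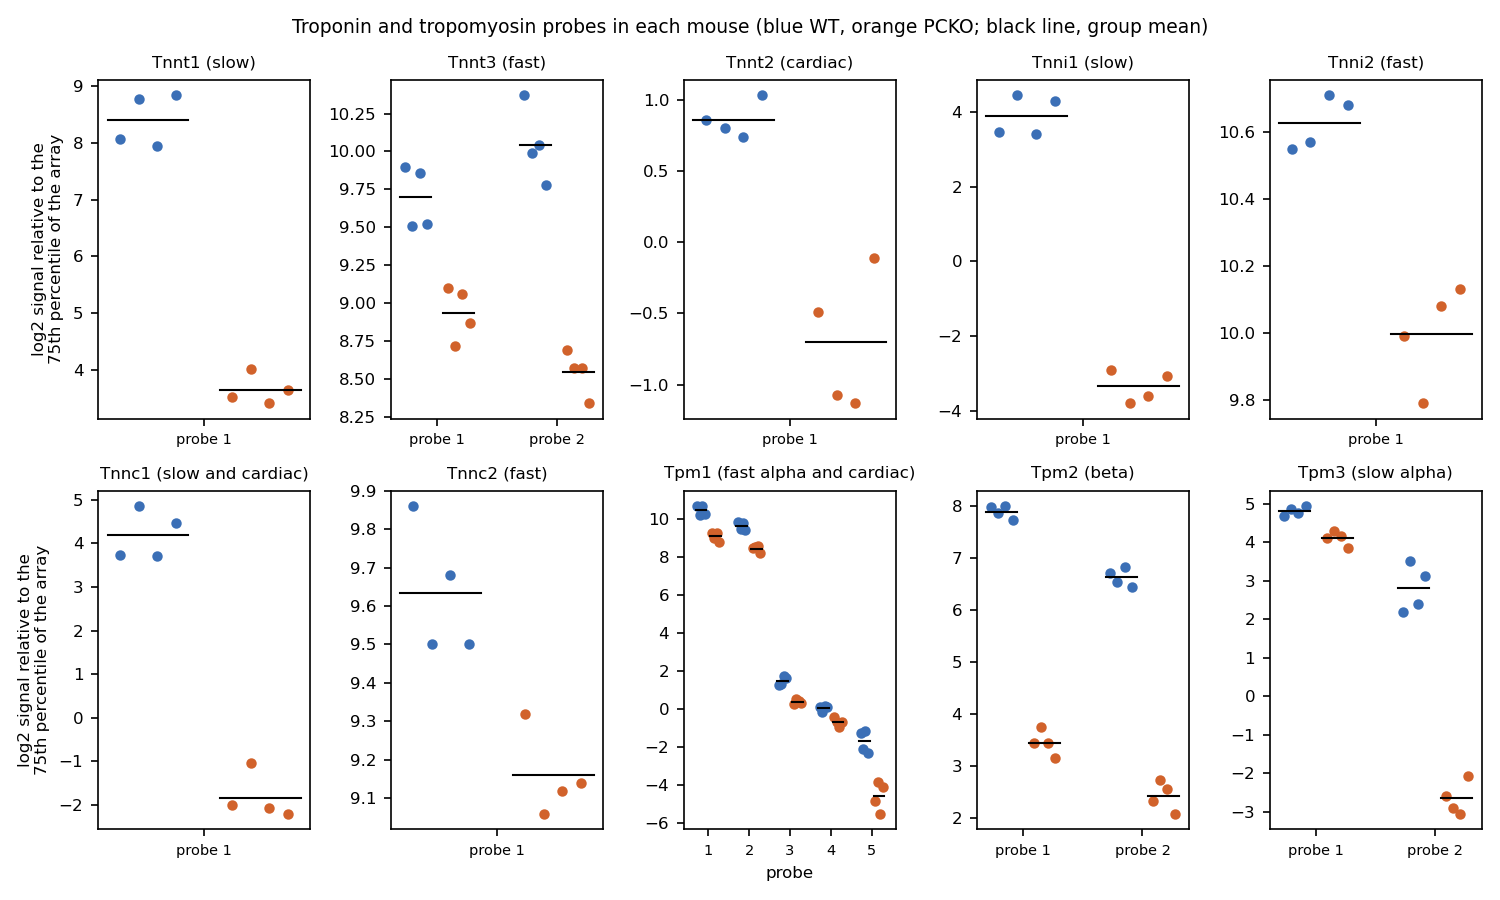
Level of each member probe in each of 8 mice (log2 of the processed intensity, with the array's 75th percentile as 0), with 1 panel per gene, its own vertical axis in each panel, 1 point per mouse and a bar at each group mean. Probes are numbered by brightness within a gene; WT and PCKO points do not overlap for any of the 17 probes, and the differences of the means range from -7.25 for Tnni1 to -0.47 for Tnnc2.

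The DNA just before the transcription starts is shown for the 4 genes with the largest differences, for both starts of Tpm3, whose 2 probes moved by different amounts, and for Tnnc2, the member with the smallest difference. Each run is the 250 bases before a RefSeq start on GRCm38.p6, read 5′ to 3′ on the gene's strand. Capitals mark the E box (CANNTG), the letters that myogenic bHLH factors such as MyoD bind, and the M-CAT element (CATTCC or GGAATG), the letters that TEAD factors bind.
Tnni1, chr1:135799171-135799420, plus strand: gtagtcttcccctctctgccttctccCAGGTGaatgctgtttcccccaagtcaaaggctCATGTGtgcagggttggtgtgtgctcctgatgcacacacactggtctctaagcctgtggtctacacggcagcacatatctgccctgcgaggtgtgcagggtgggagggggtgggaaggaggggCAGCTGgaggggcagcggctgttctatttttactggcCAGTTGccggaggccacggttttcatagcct
Tnnc1, chr14:31208062-31208311, plus strand: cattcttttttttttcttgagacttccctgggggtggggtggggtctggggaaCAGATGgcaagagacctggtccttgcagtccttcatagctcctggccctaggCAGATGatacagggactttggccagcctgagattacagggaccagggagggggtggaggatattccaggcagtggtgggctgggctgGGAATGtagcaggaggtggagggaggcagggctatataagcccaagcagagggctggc
Tnnt1, chr7:4515976-4516225, minus strand: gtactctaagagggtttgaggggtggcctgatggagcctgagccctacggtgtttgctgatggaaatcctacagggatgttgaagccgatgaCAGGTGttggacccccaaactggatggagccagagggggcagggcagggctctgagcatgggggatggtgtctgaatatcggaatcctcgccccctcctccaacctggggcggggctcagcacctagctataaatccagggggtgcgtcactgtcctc
Tpm2, chr4:43523555-43523804, minus strand: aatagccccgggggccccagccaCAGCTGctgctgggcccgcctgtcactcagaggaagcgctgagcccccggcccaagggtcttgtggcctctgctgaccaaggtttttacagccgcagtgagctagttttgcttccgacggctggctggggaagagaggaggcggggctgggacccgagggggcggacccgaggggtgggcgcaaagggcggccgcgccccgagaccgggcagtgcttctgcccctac
Tpm3 upstream start, chr3:90072401-90072650, plus strand: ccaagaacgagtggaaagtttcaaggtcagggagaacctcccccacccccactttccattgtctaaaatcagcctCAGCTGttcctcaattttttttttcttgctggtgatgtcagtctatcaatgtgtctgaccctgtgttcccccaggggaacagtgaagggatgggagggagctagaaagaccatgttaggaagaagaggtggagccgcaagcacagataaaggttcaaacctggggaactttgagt
Tpm3 downstream start, chr3:90079271-90079520, plus strand: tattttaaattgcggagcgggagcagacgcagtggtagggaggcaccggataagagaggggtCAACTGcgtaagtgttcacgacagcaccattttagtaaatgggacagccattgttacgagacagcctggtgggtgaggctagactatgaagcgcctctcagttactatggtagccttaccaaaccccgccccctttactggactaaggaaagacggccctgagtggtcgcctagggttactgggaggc
Tnnc2, chr2:164779735-164779984, minus strand: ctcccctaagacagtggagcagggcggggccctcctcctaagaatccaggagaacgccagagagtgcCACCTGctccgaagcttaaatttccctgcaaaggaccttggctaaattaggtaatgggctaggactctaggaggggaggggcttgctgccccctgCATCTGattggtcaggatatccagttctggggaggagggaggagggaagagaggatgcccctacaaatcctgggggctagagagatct

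RefSeq windows were at hand for 8 of the 10 genes, 11 windows in all. Every one of the 11 held an E box on either strand, as did 66.2% of 32851 such windows of all mouse genes. The E box CAGCTG stood in 5 windows of 4 member genes, against 13.0% of all windows. Tnni1 has 2 overlapping windows, of which 1 is printed, and both hold the same CAGCTG. M-CAT letters were found in 3 windows, against 12.6% of all. The MEF2 motif and the CArG box, the motif of SRF, were each matched in 0 of the 11 windows, and in 2.9% and 1.5% of all. The 3 windows with M-CAT letters belong to Tnnc1, Tnnt2 and Tpm1, whose differences were -6.02, -1.56 and -1.35. No M-CAT letters stood in the windows of Tnni1, Tnnt1 and Tpm2. These letter matches describe the windows and were not set against binding.

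The slow and fast troponin I genes differed by very unequal amounts. Tnni1, the slow inhibitory subunit (probe A_52_P657360), had levels of 3.46, 4.45, 3.41 and 4.29 in WT mice 1 to 4 and of -2.91, -3.80, -3.61 and -3.08 in PCKO mice 1 to 4. Every WT mouse stood over 6 log2 units above every PCKO mouse. The difference was -7.25 ± 0.30 (SE, n = 4 per group; 95% interval -7.94 to -6.57; limma, adjusted p = 2.6e-07), a 152-fold reduction. In intensity units the 4 WT spots read 1202.0 to 3174.5 and the 4 PCKO spots 14.6 to 21.9, and only 2 of the PCKO spots were well above background. With another background correction (normexp) the difference was -4.87, so the size of the reduction rests on how the dim PCKO spots are read.

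Tnni2, the fast inhibitory subunit (probe A_55_P2040893), was among the brightest members, with 10.55, 10.57, 10.71 and 10.68 in WT mice and 9.99, 9.79, 10.08 and 10.13 in PCKO mice. The groups stood apart by a narrow gap. Its difference was -0.63 ± 0.10 (SE, n = 4; limma, adjusted p = 5.2e-04), a 1.55-fold reduction. It was 0.07 after quantile normalization (adjusted p = 0.58) and 0.05 when centred on the spike-in probes (adjusted p = 0.9), so no direction held for Tnni2 across scalings.

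Within a mouse, the gap between 2 probes does not depend on how the array was scaled as a whole. Tnni1 fell by 6.62 log2 units more than Tnni2 (95% interval of the difference of changes -7.56 to -5.60), which is 98.4-fold, with a difference of changes of -4.43 with normexp. The gap was -6.73 ± 0.56 in WT and -13.35 ± 0.36 in PCKO mice (SD, n = 4), with no overlap. The exact two-sided permutation test over mice gave p = 0.029, the smallest possible, and 0.033 after adjustment over the 8 pairs of isoforms compared.

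Troponin C followed the same order. Tnnc1, the calcium-binding subunit shared by slow fibres and the heart (probe A_51_P461894), had levels of 3.73, 4.86, 3.72 and 4.46 in WT mice and of -2.01, -1.03, -2.08 and -2.20 in PCKO mice. PCKO mouse 2 was about 1 unit above the other PCKO mice and still far below every WT mouse. The difference was -6.02 ± 0.34 (SE, n = 4; limma, adjusted p = 1.4e-06), a 65-fold reduction, and -4.68 with normexp.

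Tnnc2, the fast calcium-binding subunit (probe A_51_P353232), had levels of 9.86, 9.50, 9.68 and 9.50 in WT mice and of 9.32, 9.06, 9.12 and 9.14 in PCKO mice. This was the smallest difference of any member, -0.47 ± 0.11 (SE, n = 4; 95% interval -0.72 to -0.22; limma, adjusted p = 0.0049), a 1.39-fold reduction. Before scaling, its intensities overlapped between the groups, with 91763.1 to 105060.9 in WT and 87737.7 to 108753.6 in PCKO mice, and no spot was saturated. The sign turned after quantile normalization (0.21, adjusted p = 0.026), when spike-in probes were the zero (0.21, adjusted p = 0.56) and in the deposited log2 values (0.27, adjusted p = 0.013), and the call was lost with normexp (-0.16, adjusted p = 0.42). Tnnc1 fell by 5.55 units more than Tnnc2 (95% interval -6.69 to -3.96; exact permutation p = 0.029, adjusted 0.033), which is 46.8-fold, with a difference of changes of -4.53 with normexp, where the troponin C split was slightly wider than that of troponin I.

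Among the troponin T genes the slow one again had the largest difference. Tnnt1, the slow tropomyosin-binding subunit (probe A_55_P2088385), had levels of 8.07, 8.77, 7.95 and 8.84 in WT mice and of 3.51, 4.01, 3.41 and 3.65 in PCKO mice. The groups were separated by nearly 4 units. The difference was -4.76 ± 0.23 (SE, n = 4; 95% interval -5.29 to -4.23; limma, adjusted p = 6.9e-07), a 27.1-fold reduction. All PCKO spots of Tnnt1 were bright, at 1878.9 to 3291.2 intensity units against 29365.2 to 63226.0 in WT mice, and the difference stayed between -4.91 and -4.08 under the alternatives run on this probe, which leave out the deposited table.

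Tnnt3, the fast subunit, was read by 2 probes with different accessions. The one brighter over all 8 arrays (A_55_P2088375) had levels of 9.90, 9.51, 9.86 and 9.52 in WT and of 9.10, 8.72, 9.06 and 8.87 in PCKO mice, a difference of -0.76 ± 0.13 (SE, n = 4; limma, adjusted p = 0.0011). The other probe (A_51_P345699) had levels of 10.37, 9.99, 10.04 and 9.78 in WT and of 8.69, 8.57, 8.57 and 8.34 in PCKO mice, a difference of -1.50 ± 0.14 (limma, adjusted p = 2.3e-05). The 2 probes thus gave a 1.69-fold and a 2.83-fold reduction, and the difference between them was not tested. For the first, the call was lost after quantile normalization (-0.09, adjusted p = 0.41) and under spike-in centring (-0.08, adjusted p = 0.83). Tnnt3 is a gene of many alternative exons, and the files do not say which exons a probe reads.

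Tnnt2, the heart form (probe A_51_P338262), had levels of 0.86, 0.80, 0.74 and 1.03 in WT mice and of -0.49, -1.07, -1.13 and -0.11 in PCKO mice. The difference was -1.56 ± 0.22 (SE, n = 4; limma, adjusted p = 3.5e-04), a 2.95-fold reduction. Of 10 heart markers, 6 (Nppa, Nppb, Ryr2, Myl7, Gata4 and Nkx2-5) were not well above background on any array, and Tnni3, the heart troponin I gene, and Tbx5 were above it on 1 array each. The other 2, Myh6 and Myl4, which encode atrial myosin chains, were above it on all 8 arrays and lower in PCKO mice, with differences of -1.58 ± 0.52 and -1.80 ± 0.25 (limma, adjusted p = 0.025 and 3.0e-04). The summed level of the list was 7.4 to 9.78 in PCKO and 18.4 to 49.7 in WT mice, and its part in the Tnnt2 result was not tested.

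Tnnt1 fell by 4.00 units more than Tnnt3 (95% interval -4.96 to -2.81), which is 16-fold. Tnnt2 fell by 3.20 units less than Tnnt1 (95% interval 2.13 to 4.19). Both gave an exact permutation p of 0.029, adjusted 0.033. Against Tnnt3, the change of Tnnt2 was not told apart: the difference was -0.80 with an interval of -1.69 to 0.13, the mice overlapped, and the exact permutation p was 0.086. With quantile normalization this pair did separate, at -1.46 (exact permutation p = 0.029). With the probes of a gene averaged it narrowed to -0.43 (exact permutation p = 0.23). The result for this pair thus rests on the Tnnt3 probe and the scaling.

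**Figure D2:**
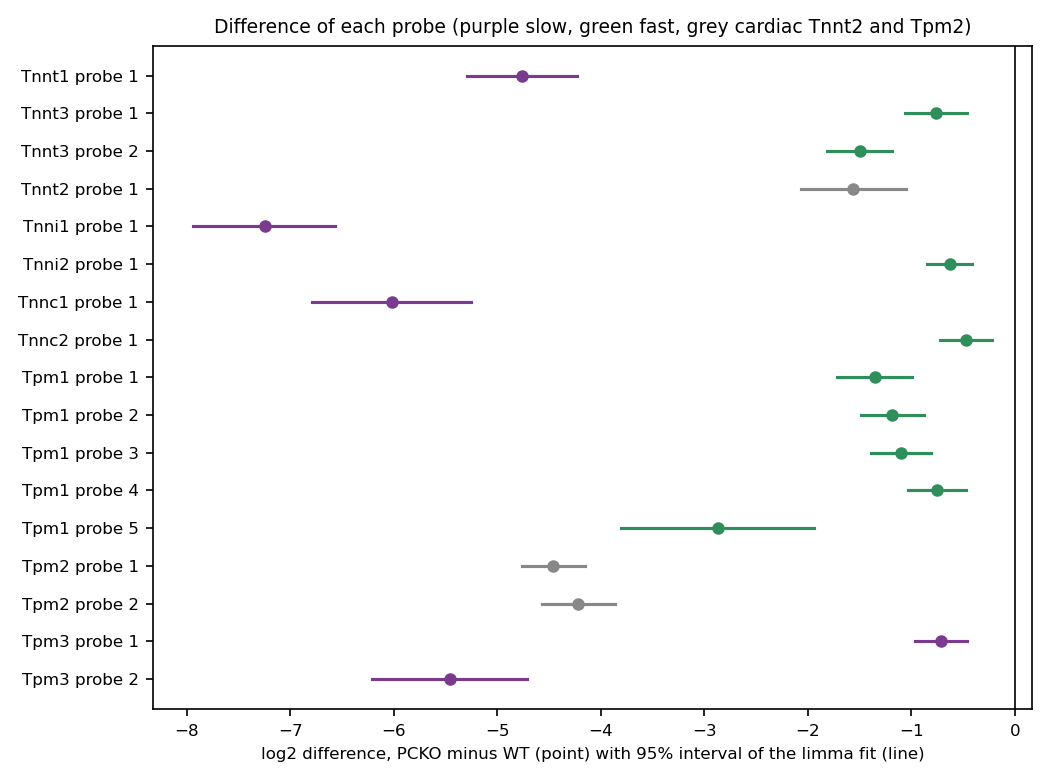
Difference between PCKO and WT muscle for each of the 17 probes (log2, PCKO minus WT), with lines for the 95% interval of the limma fit. Purple marks genes of slow fibres, green genes of fast fibres, grey the heart form Tnnt2 and the beta chain Tpm2; Tnni1, Tnnc1 and the dimmer Tpm3 probe lie farthest left, from -7.25 to -5.46, and Tnnc2 nearest 0 at -0.47.

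The 3 tropomyosin genes had unlike differences. Tpm2, the beta chain found in slow and fast fibres and in smooth muscle, had the clearest. Its brighter probe (A_55_P2121408) read 7.99, 7.87, 8.01 and 7.73 in WT mice and 3.45, 3.75, 3.44 and 3.15 in PCKO mice. The mice of each group lay close together, and nearly 4 units separated the groups. The difference was -4.46 ± 0.13 (SE, n = 4; limma, adjusted p = 5.8e-08), a 21.9-fold reduction, and the second probe (A_52_P315976) gave -4.22 ± 0.15 (limma, adjusted p = 1.5e-07), an 18.6-fold reduction.

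Tpm1, the alpha chain of fast fibres and of other muscle, was read by 5 probes. The brightest (A_55_P2187038) read 10.67, 10.17, 10.66 and 10.25 in WT mice and 9.27, 9.01, 9.26 and 8.80 in PCKO mice, a difference of -1.35 ± 0.16 (SE, n = 4; limma, adjusted p = 1.2e-04). The next 3 probes, by brightness, had differences of -1.19, -1.10 and -0.75 (limma, adjusted p at most 7.7e-04). These 4 probes spanned reductions of 1.68-fold to 2.55-fold, with WT mean levels of 10.44, 9.61, 1.47 and 0.06 by order of brightness. Before scaling, spots of the probe at -1.10 overlapped, at 258.1 to 397.4 intensity units in WT and 193.6 to 297.1 in PCKO mice. So did those of the probe at -0.75, at 118.4 to 137.5 in WT and 95.4 to 126.3 in PCKO mice, while spots of the brighter probes did not. With spike-in centring the calls of the next 3 were lost (adjusted p = 0.13 to 0.85), while that of the brightest held.

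The dimmest Tpm1 probe (A_55_P2078680) stood apart from these. It read -1.25, -2.08, -1.14 and -2.29 in WT mice, was not well above background in any PCKO mouse, and was at least 4.66-fold lower there. This bound sets the WT mean against the PCKO mean of, for each array, its own reading or the dimmest one counted as well above background, whichever is higher. Its spots read 26.0 to 55.1 intensity units in WT and 4.0 to 14.4 in PCKO mice. Its accession differs from those of the other probes, but the probes at -1.10 and -0.75 also have accessions of their own. The measured difference of -2.87 became -0.96 with normexp. No p-value is given, because the filter admitted this probe through WT arrays alone.

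Tpm3 makes a slow muscle tropomyosin from its upstream start and shorter forms, found in most cells, from its downstream start, and its 2 probes gave far apart values. The brighter probe (A_55_P2090209) read 4.67, 4.87, 4.75 and 4.94 in WT mice and 4.10, 4.29, 4.15 and 3.86 in PCKO mice, a difference of -0.71 ± 0.11 (SE, n = 4; limma, adjusted p = 5.8e-04). The second (A_55_P2246235) read 2.18, 3.51, 2.39 and 3.13 in WT mice and -2.59, -2.91, -3.05 and -2.06 in PCKO mice, a difference of -5.46 ± 0.33 (limma, adjusted p = 2.2e-06). The first is a 1.63-fold and the second a 43.9-fold reduction.

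The design gives both Tpm3 probes the same accession, and which transcripts each reads is not given in the files. Spots of the second probe read 494.7 to 1655.4 intensity units in WT and 22.1 to 37.3 in PCKO mice, and its difference was -3.60 with normexp. For the brighter probe the call was lost with spike-in centring, at -0.03 (adjusted p = 0.94). Within mice, the second probe fell by 4.75 units more than the first (95% interval -5.84 to -3.44; exact permutation p = 0.029), a comparison added after the values were seen.

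Among the tropomyosin genes, Tpm2 fell 8.59-fold more than Tpm1 (95% interval -3.51 to -2.59 in log2 units). The brighter Tpm3 probe fell by 3.75 units less than Tpm2 (95% interval 3.34 to 4.04) and by 0.64 less than Tpm1 (0.13 to 1.27). Each of the 3 gave an exact permutation p of 0.029, adjusted 0.033. The last turned to -1.63 when the probes of a gene were averaged and was 0.12 with quantile normalization (exact permutation p = 0.46), so the order of Tpm1 and Tpm3 rests on the probe and the scaling. The second Tpm3 probe fell by 4.10 units more than Tpm1 (95% interval -5.64 to -2.37; exact permutation p = 0.029). Against Tpm2 its change was not told apart, with a log2 interval of -2.29 to 0.61 and an exact permutation p of 0.11. These pairs with the second probe were also added after the values were seen.

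**Figure D3:**
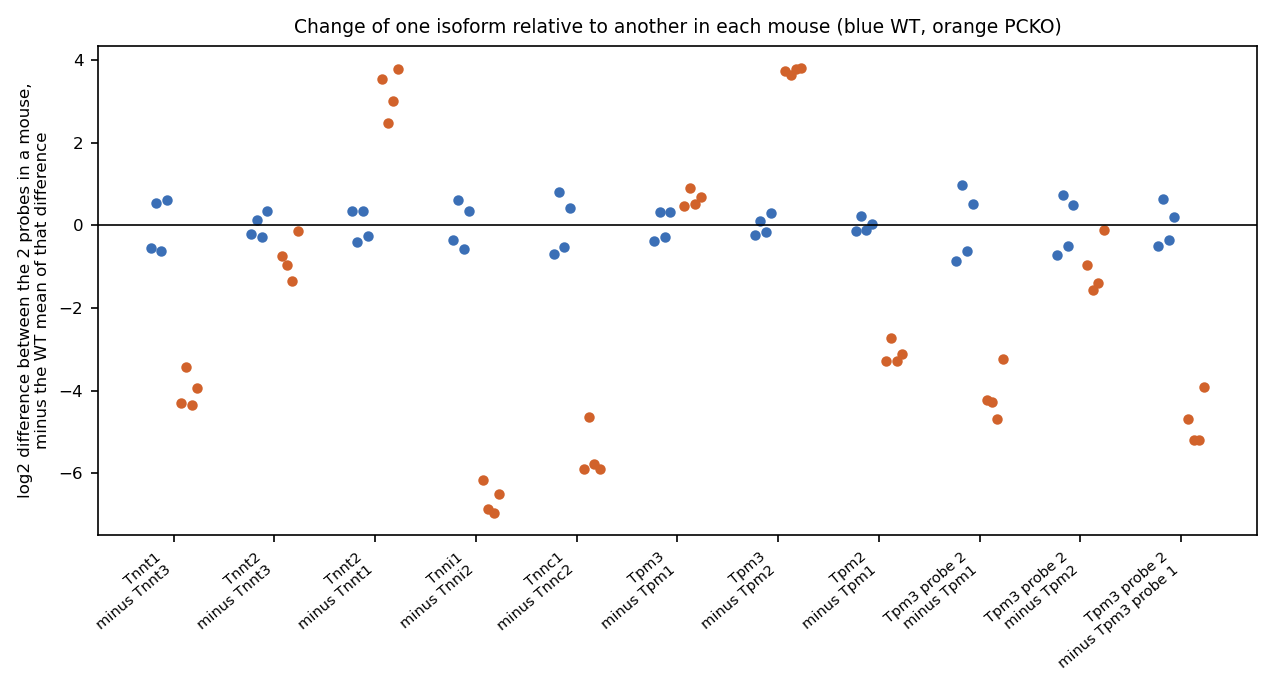
Gap between the probes of 2 isoform genes within each mouse (log2 of the first gene's probe minus the second's, less the WT mean of that gap), with 1 point per mouse, WT mice in blue and PCKO mice in orange. WT and PCKO mice do not overlap except for Tnnt2 against Tnnt3 and the second Tpm3 probe against Tpm2, and the largest shift shown is that of Tnni1 against Tnni2, with a mean of -6.62 in PCKO mice.

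Other probes of fast fibre and myosin genes had WT levels close to those of the fast troponins and differed by unlike amounts. Actn3 (WT level 10.12) and Pvalb (10.80) differed by -3.24 ± 0.23 and -5.40 ± 0.19, while Myh4 (9.26), Myl1 (9.34) and Myh8 (9.71) differed by -0.66, -1.14 and -0.63 (limma, adjusted p at most 0.0022). These genes were chosen after their values were seen, and whether brightness limits the measured differences was not tested. Probe sequences were not used here, so cross-hybridisation between related isoforms was not tested.

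Within the WT group the slow members varied together. WT mice 2 and 4 had the higher levels and WT mice 1 and 3 the lower levels of all 4 of Tnnt1, Tnni1, Tnnc1 and the second Tpm3 probe. From the group mean, Tnni1 deviated by -0.45, 0.55, -0.49 and 0.39 in WT mice 1 to 4, and Tnnc1 by -0.46, 0.66, -0.47 and 0.27. The second Tpm3 probe is grouped with the slow members here, though which transcripts it reads is not known. The brighter Tpm3 probe had the same signs, with smaller deviations of -0.14, 0.06, -0.06 and 0.13. Between the lowest and the highest WT mouse, Tnnt1 spanned 1.86-fold, Tnni1 2.06-fold, Tnnc1 2.2-fold and the second Tpm3 probe 2.52-fold.

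The slow myosin genes Myh7 (-0.28, 0.30, -0.20 and 0.18) and Myl3 (-0.09, 0.34, -0.48 and 0.23) had the same mice above and below their means. The brightest probes of the fast members had smaller deviations, of the other sign for Tnnt3 (0.20, -0.19, 0.16 and -0.17) and Tpm1 (0.23, -0.26, 0.22 and -0.19). The dimmest Tpm1 probe had the same signs as these but larger deviations (0.44, -0.39, 0.55 and -0.60). Tnni2 spanned only 1.12-fold. The WT standard deviation was larger than that of 92.6% of all tested probes for Tnni1, 93.1% for Tnnc1 and 10% for Tnni2. For the other fast members this share was 46.1% for Tnnc2 and 56.8% and 65.2% for the Tnnt3 probes. It was 68.8% for the brightest Tpm1 probe and 93.6% for the dimmest. Each slide row held 1 of the higher and 1 of the lower WT mice, and these deviations share array and RNA, so they are given without a test.

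In PCKO mice the slow members did not all have the same mouse on top. Mouse 2 was the highest for Tnnt1 and Tnnc1, and also for the slow myosin genes Myh7 (0.48 above its mean), Myl2 (0.64) and Myl3 (0.74), while mouse 1 was the highest for Tnni1 and mouse 4 for the second Tpm3 probe. Tnnc1 deviated by 0.80 in PCKO mouse 2, where Tnni1 deviated by -0.45. Of the Tnni1 spots, 2 of these 4 were not well above background.

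**Figure D4:**
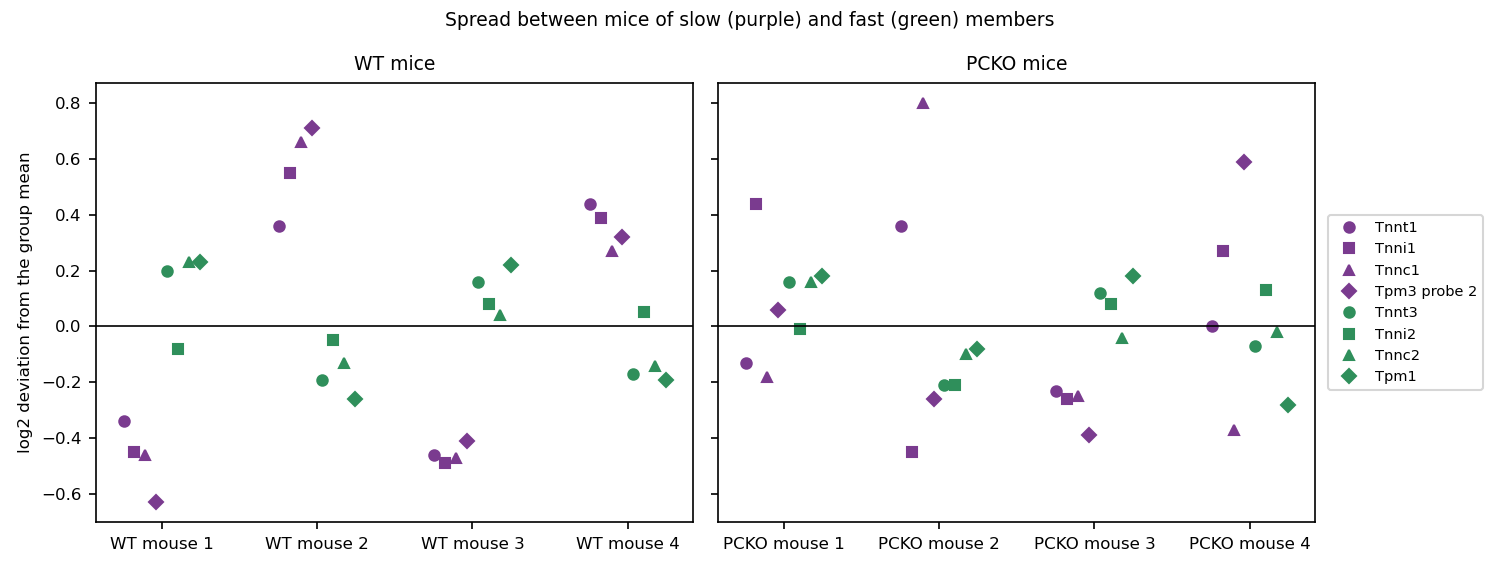
Deviation of each mouse from its group mean (log2) for 4 slow members in purple (Tnnt1, Tnni1, Tnnc1, the dimmer Tpm3 probe) and 4 fast members in green (Tnnt3, Tnni2, Tnnc2, Tpm1, brightest probes), with WT mice on the left and PCKO mice on the right. The slow members lie above 0 in WT mice 2 and 4 and below 0 in WT mice 1 and 3, and in PCKO mice they are scattered, from -0.45 to 0.80. Which transcripts the dimmer Tpm3 probe reads is not known.

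The other genes of the thin filament were also mostly lower. Of 26 listed partners (actins, nebulin, leiomodins, tropomodulins and others), 24 were tested, 22 were lower and 1 higher, with a median of -1.72. The largest differences were those of Actc1, the heart actin gene that is also made in skeletal muscle (-7.03 ± 0.25; limma, adjusted p = 1.2e-07), and of Lmod3, a nucleator of thin filaments (-5.51 ± 0.19). Xirp1, an actin-binding protein of muscle attachment sites, was the 1 that rose (1.59 ± 0.42; limma, adjusted p = 0.0093), and Klhl40 at -0.19 did not pass the test. With spike-in centring 14 of the 24 were lower and 1 higher.

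Genes that mark fibre types differed in both classes. All 11 partners of the fast fibre programme were lower, with a median of -3.84, against differences of -0.47 to -1.50 for the fast troponin probes. Mylk2, the myosin light chain kinase of skeletal muscle, had -6.78 ± 0.16 and Pvalb, the calcium buffer of fast fibres, -5.40 ± 0.19, while Myh4 and Myl1, which encode fast myosin chains, had -0.66 and -1.14. Of 10 slow fibre partners 7 were lower and none higher, with a median of -2.67, led by Myh7 (-5.82 ± 0.21) and Myoz2 (-5.28 ± 0.29), a Z-disc protein of slow fibres. With spike-in centring 9 of the 11 fast and 7 of the 10 slow partners were lower. In bulk muscle, fewer fibres of a type and less RNA per fibre cannot be told apart.

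Among 22 listed regulators of troponin and fibre type genes, 20 were tested, 16 were lower and 2 higher, with a median of -1.48. Myod1, a myogenic factor that binds E boxes, rose well above background on the 4 WT arrays and on none of the PCKO arrays, which sets it at least 23.9-fold lower by the same bound. The filter admitted Myod1 through WT arrays alone and so favours its lower call, which is among the 16. Myf6, another myogenic factor, had -4.40 ± 0.13. The 2 that rose were Ppargc1a, a coactivator of the oxidative programme (2.67 ± 0.11), and Gtf2ird1, a repressor known to bind the Tnni1 enhancer (0.42 ± 0.11). With spike-in centring 12 were lower and 3 higher.

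Troponin T and tropomyosin transcripts are cut in many ways, and 12 regulators of that splicing were listed. Of these 8 were lower and 1 higher, with a median of -1.43. Rbfox1, a splicing factor of muscle and neurons, had -4.31 ± 0.08 and Rbm38 -2.84 ± 0.13, Mbnl1 had -1.53, and Rbm4 rose by 0.40. With spike-in centring 7 were lower and 3 higher. Whether exon use changed in any member was not measured by these probes.

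Markers of other cell types were also lower on the 75th-percentile scale, by less than the slow troponins. All 8 tested smooth muscle and pericyte markers were lower, with a median of -0.89 and a summed level of 73.3 to 90.2 in PCKO against 154 to 180 in WT mice, and this cell type also makes Tpm1 and Tpm2. All 8 fibroblast markers were lower (median -1.67, sums of 237 to 348 against 551 to 828), as were 6 of 7 endothelial (median -0.92), 5 of 7 macrophage (median -0.89) and 5 of 6 tendon markers (median -1.32). Of 7 markers of satellite cells and regenerating fibres, which can make Tnnt2, 4 were lower and none higher (median -0.63). Their summed level, 528 to 608 against 759 to 1020, came mostly from Myh8, the perinatal myosin (9.08 in PCKO and 9.71 in WT mice), as Dcn was the brightest part of the fibroblast sum. Most of these calls were lost with spike-in centring: 0 of 8 smooth muscle, 0 of 7 endothelial, 1 of 7 macrophage and 2 of 6 tendon markers were lower by limma, against 6 of 8 fibroblast markers. At an unadjusted p under 0.05, 1 smooth muscle and 0 endothelial markers were lower. The medians were then -0.21 for smooth muscle and -0.25 for endothelial markers, and that of satellite and regenerating markers turned to 0.05, with 3 lower and 1 higher. The 8 general markers of skeletal muscle were all lower, with a median of -3.13. The part of other cells in the differences of Tpm1, Tpm2 and Tnnt2 was not tested.

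The targeted genes were lower as well. Ep300, which encodes p300, had a difference of -1.44 ± 0.11 (SE, n = 4; limma, adjusted p = 9.6e-06), and Crebbp, which encodes CBP, had -0.70 ± 0.11 (limma, adjusted p = 6.0e-04). The Crebbp difference is about the size of the 0.68 shift of the 75th percentile against the spike-in probes. Before scaling, Crebbp intensities overlapped, with 2229.9 to 3024.8 in WT and 1897.5 to 2528.4 in PCKO mice. Those of Ep300 did not, with 106.0 to 158.2 in WT and 58.9 to 95.2 in PCKO mice. Where their probes lie relative to the deleted part is not given in the files, and Tpm4, a tropomyosin of non-muscle cells outside the 10 genes, had -1.22 ± 0.11 (limma, adjusted p = 2.8e-05). On each array 43.5% to 46.1% of non-control probes were well above background.

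Some troponin I and T genes are neighbours in the RefSeq gene order. Tnnt1 lies beside Tnni3 with no protein-coding gene between, Tnni1 and Tnnt2 have 1 gene between them, and so have Tnni2 and Tnnt3. Of these neighbours, Tnni1 had a difference of -7.25 beside -1.56 for Tnnt2. Tnni2 had -0.63 beside -0.76 and -1.50 for the 2 Tnnt3 probes.

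**Figure D5:**
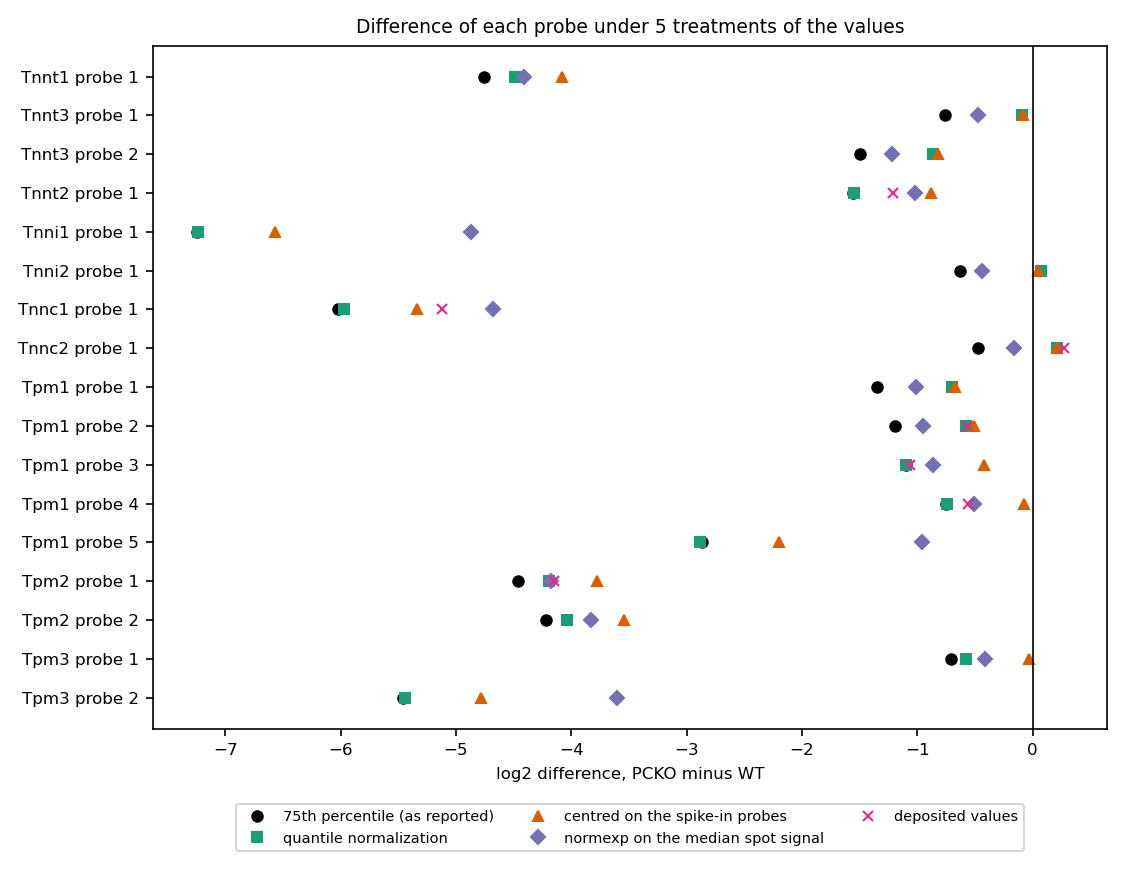
Difference of each of the 17 probes (log2, PCKO minus WT) under 5 treatments of the intensities: scaling to the 75th percentile, quantile normalization, centring on spike-in probes, normexp background correction and, for the 7 probes it holds, the deposited table. Tnni1 ranges from -7.25 to -4.87 among those shown, and the points of Tnni2 and Tnnc2 lie on both sides of 0.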

How the data were processed

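Cy3-labelled RNA of 8 mice was hybridised to 8 Agilent arrays of 1 slide, 2 arrays of each group in each of its 2 rows. The deposited scanner files hold spot intensity values, background-subtracted and corrected for spatial trends by the Feature Extraction software, per the file headers. The authors' deposited series table holds log2 values for 32622 probes, with medians of 5.45 to 5.52; its background treatment is unknown, so it served as an alternative alone.

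Levels are log2 of processed intensity, set to 0 at the 75th percentile of an array's non-control probes. Control and outlier spots were left out, and probes well above background on at least 4 arrays were tested with limma 3.58.1 in R 4.3.3 (group as the only term, two-sided, Benjamini-Hochberg over 24872 probes, threshold 0.05). A gene took the value of its brightest probe. Names came from RefSeq accessions: 26582 probes matched 1 symbol, none several, 29099 none. Isoform pairs were tested by exact permutation over mice (70 splits), with intervals from the inverted test. The fit was tested on simulated data. The members and gene lists were chosen with earlier results of these data known, and the genes named beside the members are the 2 largest differences of each list and any that counts of 5 or fewer or a contrast in the text call for, the latter chosen after their values were seen. Alternatives were quantile normalization, other centring, normexp with an offset of 50, other filters and probe rules, the deposited table, each slide row alone and each mouse left out. The number of arrays limits the precision.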

Additional observations from a re-analysis of the deposited data

Results flagged for a closer look

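Of 50 sets of 4 mice checked for a mouse that lies far from the others of its group, 2 had one, and chance flags about 1 in 20. Both are PCKO mouse 2. Its Tnnc1 level was -1.03, against -2.01, -2.08 and -2.20 in the other PCKO mice, and its gap between Tnnc1 and Tnnc2 was -10.08, against -11.34, -11.21 and -11.33. Both rest on the same Tnnc1 spot.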

How the results depend on the processing

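Scaling moved the counts of calls. Over all probes, 7785 were lower and 8397 higher as reported, 2393 and 12969 with spike-in centring, and 4023 and 5371 in the deposited values, which hold fewer probes. Called lower were 6 of 10 member genes and 10 of 17 probes with spike-in centring, against 9.6% of all tested probes. For the deposited table, the counts were 4 of 5 genes and 6 of 7 probes, against 27.6% of 14601 tested probes. Called higher was 1 gene and 1 probe, Tnnc2, in that table (0.27) and with quantile normalization (0.21); spike-in centring gave 0.21 without a call. Tnni2 turned to 0.07 and 0.05 under quantile and spike-in scaling, in that order. The pair of Tnnt2 and Tnnt3 moved to -1.46 with quantile normalization and to -0.43 with probes averaged. The pair of Tpm3 and Tpm1 moved to 0.12 with quantile normalization and to -1.63 with probes averaged. The second Tpm3 probe against Tpm2 turned to 0.57 with normexp. With normexp 9 genes and 16 probes were lower, against 30.6% of all tested probes, and Tnnc2 lost its call. Sizes then shrank for dim probes (Tnni1 -4.87, the second Tpm3 probe -3.60, the dimmest Tpm1 probe -0.96). Within slide rows Tnnc2 lost its call (-0.49, adjusted p = 0.11; -0.46, adjusted p = 0.055), as did 1 Tpm1 probe in row 1 (-0.55, adjusted p = 0.063), with 2 mice per group. The causes were not tested beyond the alternatives' own construction. Leaving out any 1 mouse changed no call of a member probe or pair's direction. Deviations of same-numbered mice were only weakly correlated (r of 0.02 to 0.09). The WT mice with the highest correlation to PCKO mice 1, 2, 3 and 4 were 1, 2, 3 and 1. These values do not settle whether the numbers pair mice. With the replicate block 10 member genes and 17 probes were lower, and 7721 probes lower and 8170 higher over all. Signals near background limit the sizes for Tnni1, Tnnc1, the second Tpm3 probe and the dimmest Tpm1 probe.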
